A study of Mus musculus with 24 samples.

Results

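Small RNA libraries were made from mouse embryonic stem cells, called mESC here, and from neural progenitors derived from them, called NPC. In these libraries Snrpb, the gene of the spliceosomal Sm protein B, held more counts than any other protein-coding gene. It was chosen as the row whose Ensembl identifier, ENSMUSG00000027404.15, carries the symbol Snrpb in GENCODE mouse release M21, and it is 1 row among 21899 protein_coding rows and 55335 rows in all. The gene was picked for its total over the libraries, so its rank and its share of the counts are given as a description, with no test. Differences of Snrpb between cell types and genotypes were not part of that choice and were tested. Differences between replicates are described without a test. The series asks whether RNA splicing depends on the length of the CAG repeat in Htt, the gene of Huntington's disease. It has 24 libraries, 2 from each cell type of each genotype: Htt knockout (KO), wild type (WT), and the heterozygous Hdh CAG knock-in lines Q20, Q50, Q92 and Q111. Per the labels, the mESC were cultured with LIF on gelatin over irradiated CF-1 mouse fibroblast feeders, and the NPC were derived from them in N2B27 medium and kept with FGF and EGF on laminin. The labels name 1 line per knock-in allele, do not describe the origin of the KO and WT cells, give Q92 as 92 repeats in the titles and 89 in the growth protocol, and do not say whether the 2 libraries of a group came from separate cultures. The p-values below therefore measure the spread between libraries, which may be technical. For each gene, 1 estimate of that spread serves all groups of a fit, although the groups were uneven. Chi-square per degree of freedom between the 2 libraries of a group was 2.02 in mESC Q20 and 26.8 to 88.3 in the other mESC groups. In NPC it ran from 2.04 in Q92 and 2.57 in Q20 to 39.6 in WT.

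Sm proteins form a ring of 7 subunits around the spliceosomal small nuclear RNAs, and the small nuclear ribonucleoprotein particles built on this ring recognise splice sites and remove introns. Genes for ribosomal, translation and splicing proteins commonly carry small nucleolar RNAs (snoRNAs) in their introns. A box C/D snoRNA is trimmed out of the spliced intron, is held by a short terminal stem with box C near its 5′ end and box D near its 3′ end, and mostly guides ribose methylation of ribosomal RNA. Human SNRPB is known as the host gene of SNORD119, a snoRNA of this class. A library of small RNAs captures short RNAs and fragments, so a coding gene enters such a count table through fragments of its mRNA or through small RNAs that lie within its annotated exons.

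In GENCODE M21 (GRCm38), Snrpb lies on the minus strand of chromosome 2 from 130171414 to 130179403. It has 4 annotated transcripts. Snrpb-201, the coding one, has 7 exons and 1161 bases. Snrpb-202 is a retained-intron transcript of 1711 bases, Snrpb-203 is a nonsense-mediated decay transcript of 1133 bases, and Snrpb-204 is a retained-intron transcript of 416 bases. Exons of the non-coding transcripts add 4 stretches that the coding transcript lacks, with lengths of 221, 307, 124 and 163 bases. The stretch of 307 bases, from 130172729 to 130173035, is the whole of intron 5 of the coding transcript and is annotated as exon in Snrpb-202. No annotated snoRNA, miRNA or other gene overlaps Snrpb on either strand in GENCODE M21 or in the RefSeq gene table of GRCm38.p6. Its nearest annotated neighbours, Tgm6 at a distance of 17181 bases and Tmc2 at 15790 bases, were at 0 counts in every library.

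The retained intron holds a stretch of 78 bases that the coding transcript lacks and that has the layout of a box C/D snoRNA. The stretch lies at chr2:130172904-130172981 on the minus strand, at bases 803 to 880 of Snrpb-202. It is printed with 2 annotated snoRNAs: Snord59a in Atp5b (chr10:128084143-128084216, plus strand) and Gm23344 in Rpl4 (chr9:64175048-64175115, plus strand). Sequences are from the GENCODE M21 transcripts, 5′ to 3′, and capitals mark box C (ATGATGA or GTGATGA) and box D (CTGA).
Snrpb: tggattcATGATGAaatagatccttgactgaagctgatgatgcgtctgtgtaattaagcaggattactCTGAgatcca
Snord59a: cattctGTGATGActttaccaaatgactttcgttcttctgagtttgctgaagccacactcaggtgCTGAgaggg
Gm23344: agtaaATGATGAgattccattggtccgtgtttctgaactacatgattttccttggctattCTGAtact

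The 3 stretches are of like length, 78, 74 and 68 bases, with box C starting at base 8, 7 and 6 and box D at base 69, 66 and 61. In Snrpb the boxes are flanked by complementary ends that allow a stem of 5 base pairs. The ends of Snord59a and Gm23344, as annotated, do not allow a stem of that length, so neither holds the full pattern searched for. The pattern searched for was box C followed by CTGA after 30 to 150 bases, both within 3 bases of a stem of 5 pairs, on the transcript strand only, and these settings were chosen after the Snrpb sequence had been read. Of 610138 windows of 307 bases in transcripts of coding genes, 0.0626% held the full pattern, 2.54% held both boxes at that spacing without the stem, 6.63% held a box C and 82.7% held a CTGA. Windows were cut from every annotated transcript, so sequence shared by transcripts of a gene was counted more than once. Such transcripts lack most introns, while the Snrpb stretch of 307 bases is a whole intron. The 0.0626% is thus no measure of how rare the pattern is in introns. Among genes named Snord, 17.2% held the full pattern and 70.7% held both boxes. None of the 42 genes named Snora, the other main class, held either. Over their whole transcripts, 32.0% of 21951 coding genes also held both boxes at that spacing. The full pattern occurred in 271 of 21951 coding genes, and the next most counted of them after Snrpb was Kpnb1, with 750 counts and rank 34 among coding genes. A match is a description of the letters. The deposited file has 1 number per gene, so the counts of Snrpb cannot be placed within it, and whether they come from the intron stretch was not tested.

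**Figure D1:**
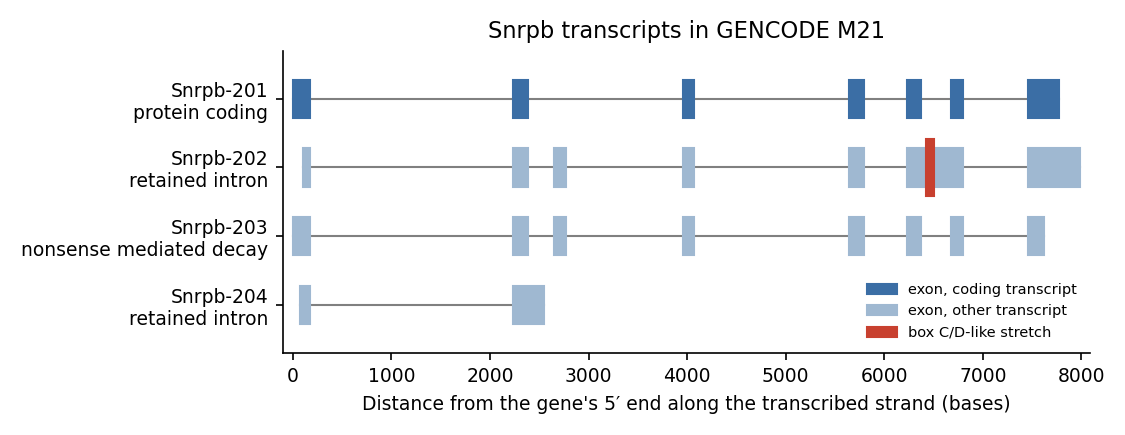
The 4 annotated Snrpb transcripts are drawn from the 5′ end of the gene, with distance in bases on the x axis, boxes for exons and lines for introns. The box C/D-like stretch of 78 bases, in red, lies in an exon of Snrpb-202 and in an intron of Snrpb-201 and Snrpb-203.

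Snrpb was the most counted protein-coding gene in 24 of 24 libraries and the row with the 12th highest total of the whole file. It held 543635 counts in all, which is 47.4% of the counts of all protein_coding rows. The next coding gene, the ribosomal protein gene Rpl7a, held 49065 counts (4.28%), and the third, the flippase gene Atp9a, held 9203. In each library Snrpb had between 7.01 and 16.6 times the count of the next coding gene. Between 5 and 11 snoRNA rows stood above it in a library, out of 132 to 162 snoRNA rows with a count. Between 4471 and 8458 other coding rows had a count in a library, and the median of those counts lay between 1 and 3.

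Per kb of annotated exon, with the 24 libraries summed, Snrpb had 275119 counts, against 27549 for Rpl7a and 4129 for the histone gene Hist1h3b, the 2 next highest of the 10 most counted coding genes. The remaining 7 were Atp9a, Lars2, Hist4h4 and the mitochondrial genes mt-Co1, mt-Nd2, mt-Nd1 and mt-Cytb, at 334 to 2345 counts per kb. Rpl7a is a known snoRNA host, and 2 annotated snoRNA genes on its exons, Gm22879 (chromosome 2, 26912218 to 26912291) and Gm24134 (chromosome 2, 26912530 to 26912600), had 0 counts in every library. Of 67 genes named Snord or Snora that lie on an exon of another gene of the same strand, 10.4% had a count. Of 73 named genes that do not, 78.1% had one. Over the whole snoRNA biotype, named or not, the shares were closer: 10.6% of 170 on such an exon and 15.7% of 1337 elsewhere. The 170 genes on exons held 532090 counts together, and the 1337 held 15156925. How the authors' counting treated reads that fall on 2 genes is not given in the sources used here. Snrpb has no annotated small RNA gene in its span, and whether this bears on its count was not tested.

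The other Sm proteins, which sit in the same ring, were close to the limit of detection. The 7 other genes of the list, Snrpn, Snrpd1, Snrpd2, Snrpd3, Snrpe, Snrpf and Snrpg, held 212 counts together over the 24 libraries, with 8 for Snrpf and 52 for Snrpd1 as the extremes. No more than 8 counts of any of them were seen in a library. Snrpb held 2564 counts for each count of theirs. On the scale of mean CPM (counts divided by the library total, times 1e6) per kb of exon, Snrpb was at 11424 and the other 7 were between 0.275 and 1.71. Of the 30-base stretches of the coding transcript, 6.63% also occurred in Snrpn, Gm15033 or Gm18671, while 0 of the 278 stretches of the retained intron occurred in a transcript of another annotated gene.

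**Figure D2:**
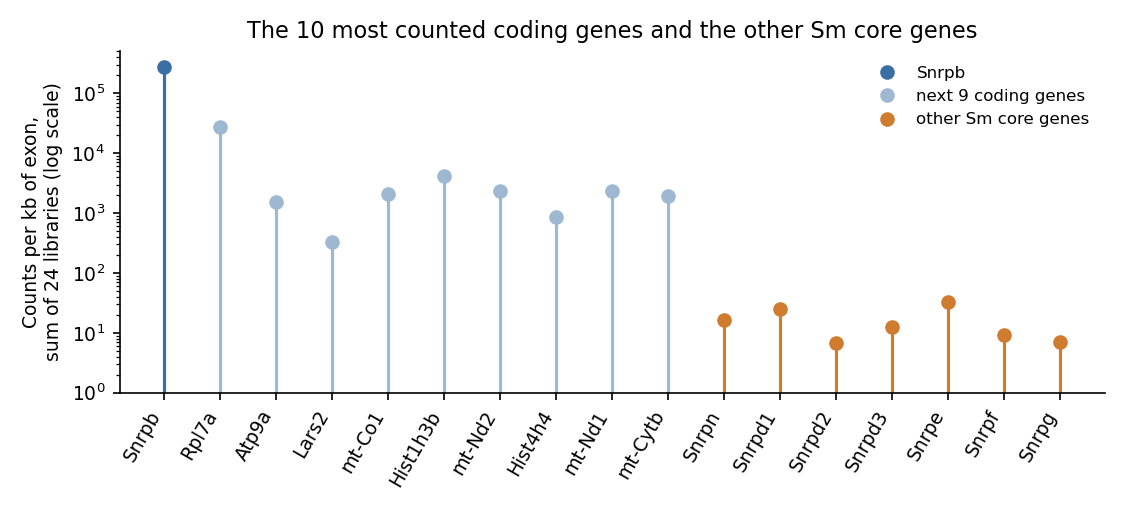
Counts per kb of annotated exon, summed over 24 libraries, are plotted on a log y axis for the 10 most counted coding genes and the 7 other Sm core genes, 1 point per gene. Snrpb, at 275119, stands above Rpl7a at 27549 and above every other gene plotted.

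Snrpb took 1.80% to 3.01% of all counts of a library, with a mean of 2.12% ± 0.205 (SD, n = 12) in mESC and 2.40% ± 0.379 (SD, n = 12) in NPC. Within a genotype the mESC and NPC shares did not overlap in 6 of 6 genotypes: NPC was higher in 5 of them and lower in 1, Q50, at a mean of 1.82% in NPC and 2.30% in mESC. The library totals ran from 642384 to 2360434 in mESC and from 342022 to 682113 in NPC, so the Snrpb share of a single library was known closely: in mESC KO replicate 1, 49900 counts gave 2.30%, with an exact 95% Clopper-Pearson interval of 2.28% to 2.32%. Such intervals cover counting error only. Htt itself was too thinly counted to check the genotypes, with 1 to 3 counts in the KO libraries and 0 to 9 in the others. The markers of the cell types followed the labels: summed ES cell markers (14 of 15 matched) were at 758 to 2475 CPM in mESC and 0 to 382 in NPC, and neural progenitor markers (13 of 14 matched) at 1.75 to 11.4 in mESC and 225 to 838 in NPC. Mir9-2 and Mir124a-1, on the neural list, were at 0 in all libraries, and of the 391 ES marker counts in NPC, 390 were in the 2 Q20 libraries and 1 was in Q111. Of the 10 feeder fibroblast markers, Mir199a-1, Mir199a-2 and Mir214 were at 0, and the sum did not exceed 22.9 CPM.

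In mESC, the 2 WT libraries had 53783 and 21223 Snrpb counts, 2.36% and 2.07% of all counts. The KO libraries had 49900 and 21255 counts, 2.30% and 2.21%. The Q20 libraries had 36906 and 39532 counts, 2.06% and 2.08%. The KO values lay within the WT range, and the Q20 range overlapped it at its lower end. Of the longer repeats, Q50 had 43891 and 16334 counts, 2.05% and 2.54%, the latter being the highest share in mESC. Q92 had 40657 and 18802 counts, 1.90% and 1.94%. Q111 had 48622 and 20890 counts, 2.06% and 1.82%, the latter being the lowest share in mESC. Ordered by mean share of all counts, mESC groups ran Q50, KO, WT, Q20, Q111, Q92, and every pair of neighbours in that order overlapped.

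The NPC WT libraries had 18975 and 12440 Snrpb counts, 2.78% and 2.82% of all counts. NPC KO had 9489 and 10607 counts, 2.46% and 3.01%, on both sides of the WT values. NPC Q20 had 11093 and 11981 counts, 2.31% and 2.21%, both below WT. NPC Q50, with 8659 and 8499 counts, had the 2 lowest shares of the NPC libraries, 1.83% and 1.80%. NPC Q92 had 11511 and 10962 counts, 2.62% and 2.53%. NPC Q111 had 7327 and 10297 counts, 2.14% and 2.27%, overlapping Q20. By mean share of all counts the order was WT, KO, Q92, Q20, Q111, Q50. Neighbours were apart beyond their spread at 2 steps, from Q92 to Q20 and from Q111 to Q50. The order depended on the denominator: in CPM scaled over all 24 libraries by the trimmed mean of M values (TMM), it ran WT, Q50, KO, Q111, Q20, Q92, with WT the highest on both scales.

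**Figure D3:**
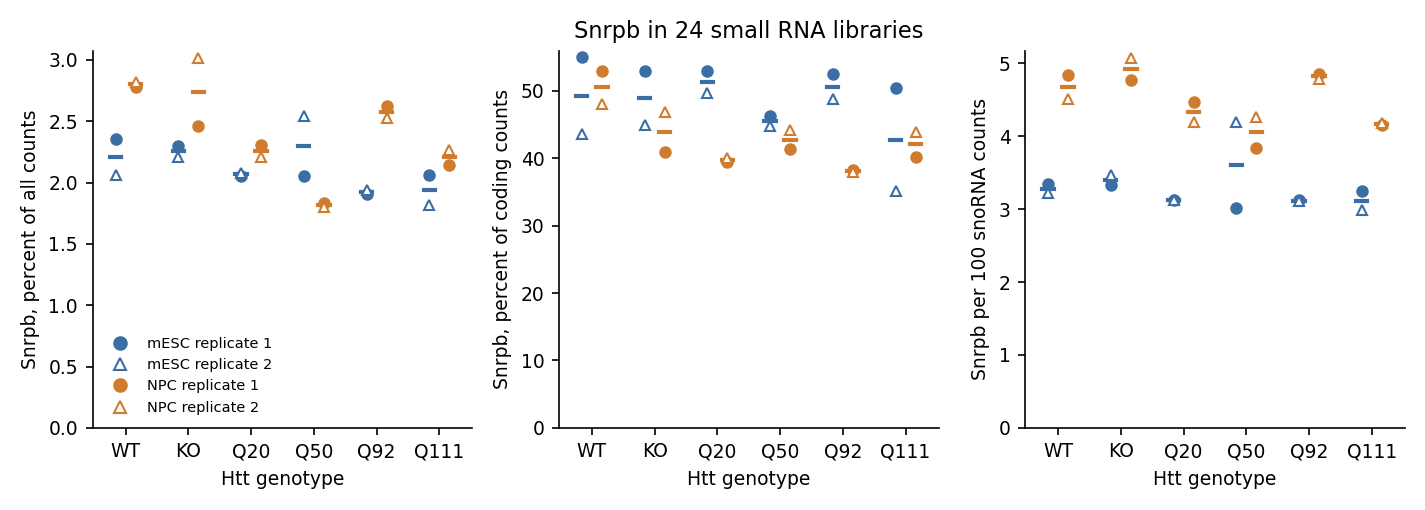
Snrpb as percent of all counts (left), as percent of protein_coding counts (middle) and per 100 snoRNA counts (right) is plotted for each of 24 libraries by Htt genotype, with circles for replicate 1, triangles for replicate 2 and a bar at the mean of 2. In the right panel the NPC means lie above the mESC means in 6 of 6 genotypes, and in the middle panel replicate 1 lies above replicate 2 in 6 of 6 mESC groups.

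As a share of coding counts, Snrpb took 48.1% ± 5.53 (SD, n = 12) in mESC and 42.9% ± 4.53 (SD, n = 12) in NPC. The NPC mean was lower in 5 of 6 genotypes, and the 2 ranges were apart in 3 of those 5. The other coding rows together made up 2.33% of all counts in mESC and 3.22% in NPC, so the denominator moved with the cell type. Against the snoRNA rows the direction was the opposite. Snrpb had 3.28 ± 0.324 (SD, n = 12) counts per 100 snoRNA counts in mESC and 4.50 ± 0.372 (SD, n = 12) in NPC, higher in NPC in 6 of 6 genotypes and without overlap in 5 of them. The snoRNA rows held 64.6% of the counts in mESC and 53.1% in NPC. These shares were not tested, because the gene was chosen by its share.

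The replicates differed in a regular way in mESC. The share of coding counts was higher in replicate 1 than in replicate 2 in 6 of 6 mESC groups: 55.0% and 43.5% in WT, 52.9% and 45.0% in KO, and 53.0% and 49.7% in Q20. For the longer repeats, Q50 had 46.2% and 44.8%, Q92 52.5% and 48.8%, and Q111 50.4% and 35.1%. The other coding rows took a larger share of all counts in replicate 2 in 6 of 6 groups, and the library total was higher in replicate 1 in 5 of 6, the exception being Q20. The share of Snrpb in all counts was higher in replicate 1 in only 3 of 6. In NPC the share of coding counts was higher in replicate 1 in 2 of 6 groups. The labels do not say that a replicate number marks a batch, and the part of depth or library preparation in this difference was not tested.

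Snrpb also varied little between libraries. The SD of its log2 CPM over 24 libraries was 0.26, the least of 493 genes with a mean of at least 10 CPM, whose median SD was 0.69. Within mESC alone it ranked 28 of 493, and within NPC alone 7 of 493. Deeply counted genes have less counting error, so a comparison among genes of like abundance is closer. Among the 50 genes with at least 1000 CPM, Snrpb varied least with TMM scaling (median SD 0.56), and was second to Gm26202 when scaled by library totals (SD 0.21). Within mESC it ranked 3 of 50 with TMM and 2 of 50 with library totals. Within NPC it ranked 4 of 50 with TMM and 16 of 50 with library totals, so its place there depended on the scaling. The coding gene Rpl7a varied least of the 50 in NPC with library totals, and was among the least spread over 24 libraries with TMM.

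**Figure D4:**
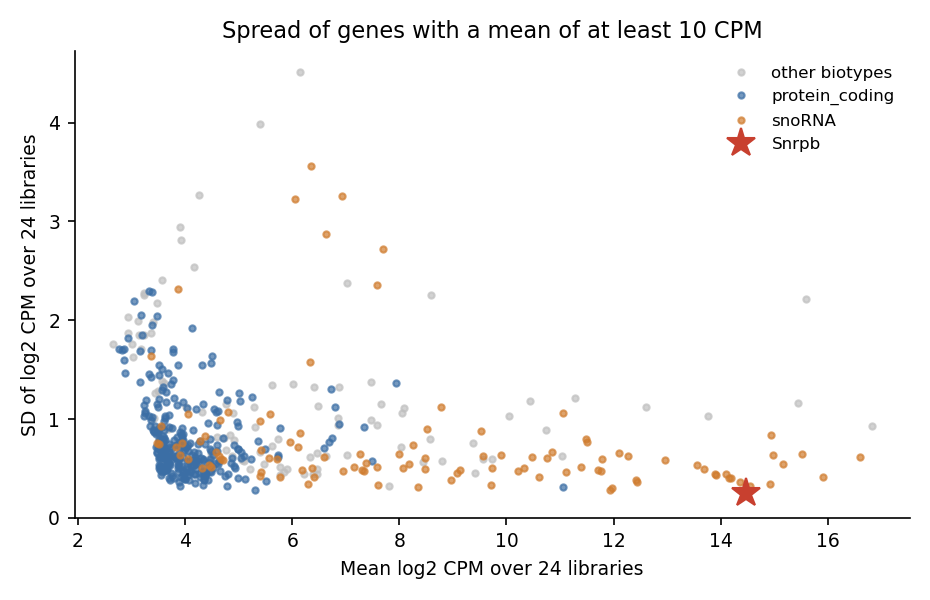
The SD of log2 CPM over 24 libraries (y axis) is plotted against the mean log2 CPM (x axis) for genes with a mean of at least 10 CPM, coloured by biotype. Snrpb, the star, has the lowest SD, 0.26, and lies among abundant snoRNA genes. The coding gene Rpl7a is also among the least spread genes with at least 1000 CPM.

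The genes whose counts moved most like those of Snrpb from library to library were snoRNAs. Over 492 genes compared in 24 libraries, with the mean of each cell type subtracted from log2 CPM, the Pearson correlations with Snrpb among the 5 highest included those of Gm23301 (0.87), Gm24494 (0.84), Gm26202 (0.82) and Snord59a (0.77). Without the subtraction they included Snord59a (0.80), Gm26202 (0.77), Gm24494 (0.74) and Gm23344 (0.73). These 5 genes have the snoRNA biotype and lie within a protein-coding gene of the same strand: Gm23301 and Gm26202 in Rpl17, Gm24494 in Rabggtb (chr3:153911610-153911690), Snord59a in Atp5b and Gm23344 in Rpl4. By biotype, the median correlation after subtraction was 0.27 for 106 snoRNA genes, 0.09 for 31 miRNA genes and -0.09 for 286 other coding genes. The biotypes were not matched for abundance, and thinly counted genes carry more counting error. The libraries, their depth and the scaling are shared by all genes, and scaled values of a few dominant rows are tied to each other, so these correlations carry no p.

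Between the cell types, Snrpb was called neither higher nor lower in NPC by edgeR's quasi-likelihood test. In CPM scaled by TMM over all 24 libraries, mESC libraries lay at 24456 ± 3925 (SD, n = 12) and NPC libraries at 21731 ± 3770 (SD, n = 12), and their ranges overlapped. The log2 difference of NPC minus mESC, over the means of the 6 groups each, was -0.18 ± 0.11 (SE), with a Benjamini-Hochberg adjusted p of 0.156. In that comparison 58.4% of the 904 genes tested were called, 11.7% had a smaller absolute change than Snrpb, and the median absolute change was 0.85. In bulk libraries, fewer cells of a type and less RNA per cell cannot be told apart. With library totals in place of TMM the sign turned, to 0.17 (adjusted p = 0.0344), while the median of all genes moved from -0.02 to 0.32. Relative to the median of all genes, Snrpb stood at -0.16 with TMM and -0.15 with library totals. Leaving out mESC KO replicate 2 gave -0.34 (adjusted p = 0.0247) and leaving out mESC Q111 replicate 2 gave -0.24 (adjusted p = 0.0425), within a range of adjusted p from 1.63e-05 to 0.838 over all 31 alternatives.

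The snoRNAs named above mostly fell in NPC in the same fit. Gm23301 fell by 1.13 on the log2 scale, Gm24494 by 1.04, Gm23344 by 0.57 and Gm26202 by 0.50, all past an adjusted p of 0.05. Snord59a, at -0.21 ± 0.10 (SE), missed the threshold (adjusted p = 0.0806). With library totals the 4 that fell still did so, by 0.16 for Gm26202 to 0.77 for Gm23301, and Snord59a was at 0.14 (adjusted p = 0.104). Of the next 9 coding genes, mt-Nd1 (1.41), mt-Co1 (1.29), mt-Nd2 (0.77) and Lars2 (0.61), the gene of mitochondrial leucyl-tRNA synthetase, rose in NPC, and Atp9a (-2.20) and Hist4h4 (-0.76) fell. Rpl7a, at -0.11 (adjusted p = 0.485), mt-Cytb, at 0.62 (adjusted p = 0.0550), and Hist1h3b, at 0.32 (adjusted p = 0.525), were not called. With library totals Hist4h4 was no longer called (-0.46, adjusted p = 0.162), mt-Cytb was (0.91, adjusted p = 0.0167), and Rpl7a was at 0.21 (adjusted p = 0.236).

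Among the genotypes of mESC, no difference in Snrpb was called. The test of any difference among the 6 genotypes gave F = 0.35 (adjusted p = 1.00), in a comparison that called 0.0566% of 1766 genes. The genotype contrasts were fitted within a cell type, so the CPM given with them are scaled by TMM over the 12 libraries of that cell type. On this scale KO lay at 22512 ± 4089 and WT at 22533 ± 6303 (SD, n = 2 each), and the log2 difference of KO minus WT was -0.00 ± 0.40 (SE), with 0% of genes called by edgeR, 0 by DESeq2 and 17 genes at an unadjusted p under 0.05. Q20 against WT gave 0.12 ± 0.40, with 0.0566% called. Against Q20, the differences were -0.33 ± 0.40 for Q50, -0.08 ± 0.40 for Q92 and -0.45 ± 0.40 for Q111, each with 0% of genes called by edgeR. At an unadjusted p under 0.05 there were 97, 51 and 60 genes in these 3 comparisons, and DESeq2's Wald test called 9, 1 and 1, Snrpb not among them. Fitted over the 8 knock-in libraries, the slope for each 10 repeats was -0.03 ± 0.05, with 0% of 1487 genes called by edgeR, 0 by DESeq2 and 48 at an unadjusted p under 0.05. The 2 replicates of WT and of Q111 were far apart (26990 and 18076 CPM in WT, 23488 and 12382 in Q111).

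In NPC, WT stood highest in CPM. Scaled over the 12 NPC libraries, WT had 29718 and 27892 CPM, and the other 10 libraries lay between 20893 and 26643, all below WT. The test of any difference among the 6 genotypes gave F = 2.60 (adjusted p = 0.121), in a comparison that called 37.2% of 441 genes, so Snrpb was among the genes not called. Q20, at 24114 and 22432 CPM, differed from WT by -0.31 ± 0.12 (SE; adjusted p = 0.0899; 12.7% of genes called). The NPC Q20 libraries are those with ES markers, up to 382 CPM, and their part in this difference was not tested. KO, at 22167 and 26643 CPM, differed from WT by -0.24 ± 0.12 (adjusted p = 0.435; 1.36% called). Neither passed the threshold.

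The NPC values near the threshold changed sides with the processing. The test of any genotype difference in NPC passed with DESeq2 size factors (F = 4.10, adjusted p = 0.0344), with library totals (F = 8.14, adjusted p = 0.00428) and within the protein_coding rows alone (F = 8.19, adjusted p = 0.00385). It also passed without NPC KO replicate 1, KO replicate 2 or WT replicate 2 (adjusted p from 0.0203 to 0.0466), in a range of 0.00385 to 0.629 over 17 alternatives. Q20 against WT passed with DESeq2 size factors (-0.45, adjusted p = 0.0319), in DESeq2's Wald test (-0.45, adjusted p = 0.0465), within protein_coding rows (-0.71, adjusted p = 0.0124) and without NPC WT replicate 2 (-0.52, adjusted p = 0.0195), in a range of 0.0124 to 1 over 11 alternatives. KO against WT passed in none of its 11 alternatives. WT replicate 1 also had the largest total of the NPC libraries, 682113 counts, and the part of depth in the WT level was not tested.

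Among the knock-in lines in NPC, no difference of Snrpb from Q20 was called. On the same scale Q50 had 20893 and 24503 CPM, Q92 had 23021 and 22352, and Q111 had 23729 and 25755. All 3 ranges overlapped that of Q20. The log2 differences from Q20 were -0.04 ± 0.12 for Q50, -0.04 ± 0.12 for Q92 and 0.09 ± 0.12 for Q111 (SE), with 17.7%, 15.9% and 14.3% of genes called and adjusted p from 0.661 to 0.893 for Snrpb. These 3 comparisons share the Q20 libraries, with their ES markers. The value for Q50 depended on the scaling: with library totals it was -0.31 (adjusted p = 0.0708). With WT as the control, Q50 gave -0.34 (adjusted p = 0.101) and Q92 gave -0.34 (adjusted p = 0.0474). The slope for each 10 repeats was 0.01 ± 0.01 (adjusted p = 0.658), with 6.45% of 403 genes called.

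Effects of genotype on Snrpb were not found to differ between the cell types. The difference of the KO effect, NPC minus mESC, was -0.25 ± 0.37 (SE; adjusted p = 1.00), with 0% of 904 genes called by edgeR, 0 by DESeq2 and 36 genes at an unadjusted p under 0.05. The difference of the CAG slopes was 0.01 ± 0.05 (adjusted p = 0.974), with 1.51% of 663 genes called. Some directions were opposite between the cell types. In CPM scaled over all 24 libraries, as in these tests, both Q50 libraries lay below both Q20 libraries in mESC and above both in NPC, where they overlapped when scaled over the 12 NPC libraries. In percent of all counts Q92 did the same against Q20. The tests of these differences were added after the values were seen and gave 0.50 ± 0.37 for Q50 (adjusted p = 0.653, 0.885% of genes called) and -0.10 ± 0.37 for Q92 (adjusted p = 1.00, 1.88% called). The same test gave -0.56 ± 0.37 for Q20 against WT (adjusted p = 0.782, 0.664% of genes called) and 0.44 ± 0.37 for Q111 against Q20 (adjusted p = 0.711, 0.111% called). With library totals, the tests of Q50 and Q92 gave -0.47 ± 0.23 (adjusted p = 0.238) and 0.29 ± 0.23 (adjusted p = 0.869), so the sign of both depended on the scaling.

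**Figure D5:**
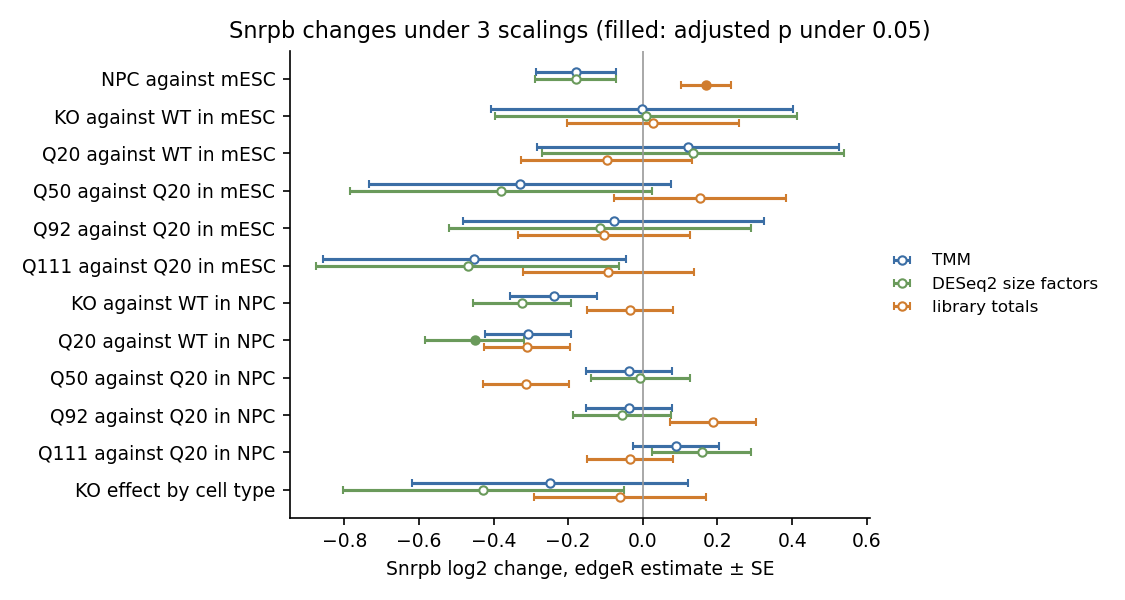
Log2 changes of Snrpb with their SE are plotted for 12 comparisons under TMM, DESeq2 size factors and library totals, with filled points for an adjusted p under 0.05. The 2 filled points are NPC against mESC with library totals (0.17) and Q20 against WT in NPC with DESeq2 size factors (-0.45).

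The rest of the spliceosomal machinery gave few counts. The 10 LSm genes, whose proteins form related rings, held 158 counts in mESC and 58 in NPC together, and none had enough counts to be tested between the cell types. The 14 genes that assemble Sm rings (SMN complex and methylosome) held 434 and 134, with none tested. Of 20 genes for proteins specific to single spliceosomal particles, 5 were tested and 3 of these were called, where 58.4% of all genes tested were. Snrnp200 (-1.81), the helicase that unwinds the paired spliceosomal RNAs, Prpf8 (-1.28), the central scaffold of the spliceosome, and Sf3b3 (-0.60), of the branch-site complex, fell in NPC. Sf3b1 (-0.39) and Eftud2 (-0.84) were not called, none rose, and the median of the 5 was -0.84 beside -0.02 over all genes tested. With library totals Sf3b3 was no longer called (-0.26, adjusted p = 0.391). Per NPC library, Snrnp200 had 0 to 11 counts, Prpf8 1 to 22 and Sf3b3 2 to 14. Per mESC library they had 4 to 45, 10 to 68 and 8 to 57. The other 15 genes of the list did not pass the filter on low counts. Of the 4 proteins of box C/D snoRNA particles, Nop58 alone was tested and fell by 2.13 (adjusted p = 1.30e-05). Nop58 had 12 to 32 counts in an mESC library and 0 to 5 in an NPC library. In the fits of NPC alone, 0 of the 4 passed the filter, so Nop58 entered the test through its mESC counts. Among the genotypes, Prpf8 was the only member of these lists that was called: in NPC it passed the test of any difference (F = 4.80, adjusted p = 0.0254), rose in Q20 against WT by 2.62 (adjusted p = 0.0120) and fell in Q50 against Q20 by 2.10 (adjusted p = 0.0322). It was 1 of 3 members tested in NPC, and these comparisons called 37.2%, 12.7% and 17.7% of all genes tested. It was named after its values were seen, and both contrasts rest on the Q20 libraries with ES markers. Snrpb, beside it, moved by -0.31 and -0.04 in those 2 contrasts.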

How the data were processed

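Small RNA was sequenced as single 50-base reads on an Illumina HiSeq instrument, per the labels' protocols. The authors deposited the values as raw counts per gene, and they are whole numbers whose totals differ between libraries. The submitters' processing notes name CASAVA 1.8, STAR, HTSeq and GRCm38.p6. Trimming, strand use, and the treatment of multiply mapped reads and of reads on overlapping genes are not given in the sources used here. The columns named Q89 were taken as Q92, since the growth protocol gives 89 repeats for that line.

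Of 55335 identifiers, 55154 matched GENCODE M21 without the version, and the unmatched ones held 57 of 25027120 counts. Tests used edgeR 4.0.16 (glmQLFit, glmQLFTest, R 4.3.3) on the counts, with TMM scaling, filterByExpr (minimum count 10, minimum total 15) and Benjamini-Hochberg adjustment over all genes tested, at a threshold of 0.05. Genotype contrasts were fitted on the 12 libraries of a cell type, slopes on its 8 knock-in libraries, contrasts between cell types on all 24, and the difference of slopes on the 16 knock-in libraries. The tests were run on counts simulated with changes larger than those of Snrpb and without an effect of the replicate number. That check does not cover differences as small as those of Snrpb. Log2 CPM used a prior count of 2. DESeq2 1.42.0 was an alternative. The gene, the lists and the rules for naming genes (the 10 most counted coding genes, the 5 most like Snrpb with and without centring, the list members) were chosen with earlier results of these data known. A gene that the second rule names is not reported here. Replicate numbers were not taken as pairs. CPM printed beside a genotype contrast use the TMM factors of that contrast's 12 libraries, and other CPM those of all 24.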

Additional observations from a re-analysis of the deposited data

How the results depend on the processing

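In all, 253 alternatives were run over 19 results. Of these, 210 kept the direction and the side of the threshold, 14 passed a threshold that the reported value missed, and 29 changed sign, of which 1 passed the threshold. No tested result passed the threshold as reported, so a sign near 0 carries little. The cause of a changed call or sign was not tested.

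For NPC against mESC, the log2 change was 0.17 with library totals, -0.76 with no filter on low counts (adjusted p = 1.63e-05, with 19429 genes tested), 0.094 in the wild-type libraries alone, and -0.34 to -0.11 when 1 library was left out. In mESC, KO against WT was 0.0091 with DESeq2 size factors, 0.0091 in DESeq2's Wald test, 0.027 with library totals and -0.26 to 0.26 with 1 library left out. Q20 against WT in mESC was -0.10 with library totals and -0.14 to 0.41 with 1 library left out. Q50 against Q20 in mESC was 0.15 with library totals. For Q92 in mESC, WT as the control gave 0.044, and leaving out 1 library gave -0.19 to 0.032. The mESC slope was -0.048 to 0.0042 with 1 library left out, the latter without Q111 replicate 2.

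For any difference among genotypes in NPC, F was 4.10 with DESeq2 size factors, 8.14 with library totals, 8.19 in protein_coding rows only, and 1.36 to 4.07 with 1 library left out. Q20 against WT in NPC was -0.45 with DESeq2 size factors and in the Wald test, -0.71 in protein_coding rows and -0.52 to -0.26 with 1 library left out. Q50 against Q20 in NPC was -0.31 with library totals (adjusted p = 0.0708), -0.34 against WT (adjusted p = 0.101), 0.26 in protein_coding rows and -0.16 to 0.074 with 1 library left out. Q92 against Q20 in NPC was 0.19 with library totals, 0.020 from the 4 libraries compared, -0.34 against WT and -0.058 to 0.038 with 1 library left out. Q111 against Q20 in NPC was -0.035 with library totals, -0.075 with no filter and -0.22 against WT. The NPC slope was -0.0074 with no filter and -0.00029 in protein_coding rows. The difference of slopes was -0.025 without the Q20 group, and -0.0014 to 0.043 with 1 library left out.

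With the replicate number as a block (replicate block), none of 17 results changed its call, the lowest adjusted p was 0.0685, and KO against WT in mESC was 0.012. The check of the numbers was mixed: differences between replicates 1 and 2 correlated over genes by 0.00 to 0.08 in the 5 mESC pairs that involve Q20, against 0.41 to 0.52 in the other 10. In NPC these correlations ran from -0.09 to 0.15 in the 5 pairs with Q20 and from -0.02 to 0.44 in the other 10. The replicate block raised the genes called in mESC from 1 to 29 for any difference, 1 to 25 for Q20 against WT, 0 to 20, 0 to 2 and 0 to 13 for Q50, Q92 and Q111 against Q20, and 0 to 3 for the slope. It lowered them from 26 to 9 for the NPC slope and gave 1 in place of 0 for the KO effect by cell type. For NPC against mESC it gave -0.18, with 553 genes called in place of 528. Without the other 9 most counted coding rows, Snrpb took 51.7% of coding counts in mESC and 46.1% in NPC.

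Counts of genes called moved by over 1.5 times between edgeR and DESeq2's Wald test in 6 NPC comparisons: 6 and 18 for KO against WT, 56 and 33 for Q20 against WT, 78 and 50, 70 and 44, and 63 and 37 for Q50, Q92 and Q111 against Q20, and 26 and 11 for the slope. In mESC they were 1 and 7 for Q20 against WT.

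The largest reported mESC difference, -0.45 for Q111 against Q20, had an SE of 0.40 and was not called. In NPC, also with 2 libraries per group, the SE of the same contrast was 0.12. Snrpb had at least 7327 counts in each library, and the part of library depth in these SEs was not tested.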
